A study of Mus musculus with 3 samples.

Results

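Tiling arrays of capped 5′ ends from the mouse olfactory epithelium gave 1784 regions that lay near a named olfactory receptor promoter and were called without nested PCR but not with it. They were chosen from the 7266 regions that the authors called on the High Coverage 1 array. A region was taken when its nearest edge lay within 10000 bp of a promoter position in the authors' table, when a High Coverage 2 region overlapped it by at least 1 bp, and when no Stringent region overlapped it. They are called unnested regions below. They made up 33.3% of the 5353 High Coverage 1 regions within that distance, against 33.0% of all 7266 and 32.1% of the 1913 farther away, so nearness to a named position did not set their share apart. The calls on all 3 arrays chose these regions, and their presence or absence on an array is given as a description, with no test.

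Olfactory receptors are the odorant-binding membrane proteins of olfactory sensory neurons, and a mature neuron typically uses 1 receptor gene out of the family. A typical receptor gene has its coding sequence in 1 exon, with one or more short noncoding exons upstream, so that its transcription start can lie kilobases before the coding sequence. RLM-RACE ligates an RNA oligonucleotide to the 5′ end of decapped mRNA and thereby marks capped ends for amplification. Nested PCR adds a further amplification with inner primers, which usually favours the intended product.

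There were 3 arrays in 2 groups. All were made from dissected olfactory epithelium of the C57/Bl6 strain, taken from adults at 6 to 8 weeks with 5 animals per sample, with cDNA primed by degenerate oligonucleotides against receptor coding sequence. Stringent, with 1 array, carried the product of nested PCR, and High Coverage, with 2 arrays, carried products made without nesting. The file headers name the input of High Coverage 1 as female and that of High Coverage 2 as male, so the unnested regions were those called in both of these inputs. There was no control array, and Stringent had no replicate. Per the headers, Stringent was read with a probe map of its own, and both High Coverage arrays with another. Precision is limited by how few arrays there were, and 1 array against 2 allows no test between the groups. Intervals in brackets are exact Clopper-Pearson intervals at 95%, cover counting error over regions, and treat regions of 1 array as independent, which neighbouring regions may not be.

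For comparison, 1557 High Coverage 1 regions within the same distance were overlapped by both High Coverage 2 and Stringent, and are called shared regions. Another 1658 were overlapped by neither of the other arrays, and are called single-array regions. The last 354 were overlapped by Stringent alone. Unnested regions were therefore 53.4% of the 3341 near regions called on both High Coverage arrays.

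Near the promoters, unnested regions lay on both sides of the position, somewhat denser per probe downstream than upstream, and densest in the first 100 bp after the position. By the strand of the nearest position, 1274 of 1784 lay downstream, or 71.4% (69.2 to 73.5). Another 415, or 23.3%, lay upstream, and 95, or 5.33% (4.33 to 6.47), spanned the position. Probes were also tiled mainly downstream, with 72.5% of the scored probes within 10 kb on that side of their nearest position. Counted by their centres, which puts each spanning region on 1 side, 1362 of the unnested regions lay downstream and 422 upstream. They came to 1.38 per 1000 scored probes downstream and 1.12 upstream, a ratio of 1.22 (1.10 to 1.37). Shared regions had 1.45 and 0.322, a ratio of 4.50 (3.74 to 5.47), and single-array regions had 1.22 and 1.20, a ratio of 1.02 (0.913 to 1.14). Pooled over all downstream distances, the density of the unnested regions was thus close to that of the shared regions, and the pooled densities differed upstream. By distance, the parts also differed downstream, in both directions. Between 100 and 500 bp downstream the unnested regions had 0.795 per 1000 probes and the shared regions 3.22. Between 8000 and 10000 bp downstream they had 1.26 and 0.334. Stringent calls split the parts, so the shared ratio also depends on where Stringent regions lay.

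The downstream over upstream ratio of the unnested regions depended on which probes and regions were counted. Over 500 bp from the position it was 1.12 (0.996 to 1.26), an interval that reaches 1. With probes inside Stringent regions left out, where an unnested region cannot lie, it was 1.45 (1.30 to 1.62). Without chromosome 17 it was 1.37 (1.21 to 1.55). The single-array regions, which also cannot lie inside Stringent regions, gave 0.998 (0.887 to 1.12), 1.21 (1.08 to 1.35) and 1.02 (0.915 to 1.15) under these 3 settings. The shared regions gave 3.97, 5.34 and 4.85. Their 5.34 counts regions that overlap Stringent regions but leaves out the probes inside those, so it is not comparable with 1.45. For regions of High Coverage 2 without a Stringent region, with High Coverage 1 left out, it was 1.08 (0.992 to 1.18), an interval that also reaches 1.

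**Figure D1:**
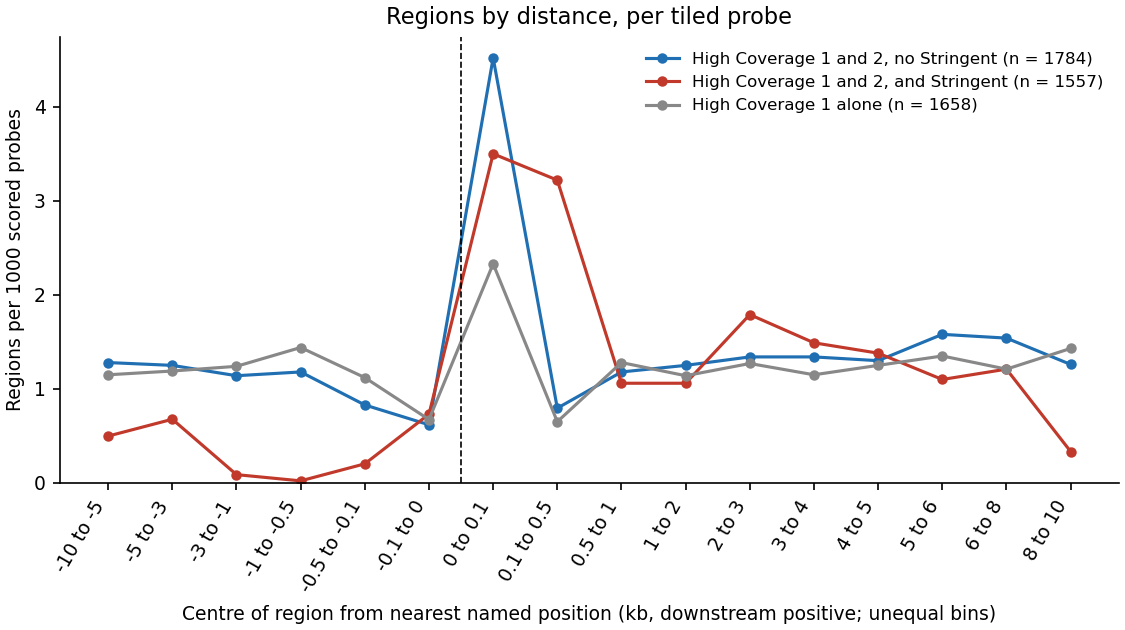
Regions per 1000 scored probes against the distance of the region's centre from its nearest named position, in kb, with downstream positive and bins of unequal width. The unnested regions (blue) reach 4.52 in the first 100 bp downstream and otherwise lie between 0.618 and 1.58, and the shared regions (red) fall to 0.0218 between 1 and 0.5 kb upstream.

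At the position the density of unnested regions rose to 4.52 per 1000 probes in the first 100 bp downstream, with 89 centres. The shared regions had 3.50 and the single-array regions 2.33 in the same bin, so all 3 kinds were denser there than in the 100 bp before. In the 100 bp before the position it was 0.618, with 11 centres, and between 100 and 500 bp downstream it was 0.795. In that latter bin the shared regions had 3.22 per 1000 probes, so they stayed dense beyond the first 100 bp and the unnested ones did not. Farther downstream the unnested regions kept a nearly even density, from 1.18 between 500 and 1000 bp to 1.58 between 5 and 6 kb. Drawn from the High Coverage 2 list instead, the same rule gave 1631 regions, 4.72 per 1000 probes in the first 100 bp and 0.281 in the 100 bp before. The sources used here do not say how the authors set the positions, so this rise may depend on signal of the same arrays.

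Downstream, the median distance to the position was 3414 bp, with quartiles of 1761 and 5444 bp. Upstream ones lay at a median of 2608 bp. Of the 415 upstream regions, 115, or 27.7% (23.5 to 32.3), lay within 10 kb downstream of another named position that was farther away, as did 44.4% (34.9 to 54.3) of the 108 upstream shared regions. The lists give no strand for a region, so the position to which such a region belongs cannot be told. At the limit of distance, the outermost unnested regions lay 9957 bp downstream of Olfr708 and 9948 bp upstream of Olfr118. The nearest regions beyond it lay 10028 bp downstream of Olfr987 and 10064 bp downstream of Olfr115.

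The unnested regions lay in the same loci as Stringent signal, though not on it. The nearest Stringent region was at a median of 874.5 bp, within 100 bp for 195 regions, or 10.9%, and within 1000 bp for 53.5%. For single-array regions the median was 1178 bp and the share within 1000 bp was 46.2%. At the edge of the rule, 6 unnested regions lay 0 or 1 bp from a Stringent region. In 3 of them the gap was 0, among them those downstream of Olfr1132 and Olfr732, where the highest Stringent scores inside were 2.41 and 1.43. Of the downstream regions, 644 of 1274, or 50.5%, began beyond the last Stringent region of the same position. A further 28.5% lay between Stringent regions, 10.8% before the first and 9.50% at positions to which no Stringent region was nearest.

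How often their promoters carried Stringent signal depends in part on the rule, so the shares here are a description. A Stringent region lay within 100 bp of the position for 457 of the 768 positions with an unnested region, or 59.5%, against 61.7% of all 1085 positions and 66.9% of the 317 without one. The 1085 include the 768. At 114 of the 768 an unnested region lay within 100 bp of the position, and no Stringent region may overlap it. Only 7 of these 114 had a Stringent region within 100 bp, so the rule lowers the 59.5%. Counted by region, 56.1% (53.7 to 58.4) of the unnested regions belonged to a position with such a Stringent region. It was 56.5% for single-array regions and 75.8% for shared regions. A shared region at the position brings a Stringent region with it, which unnested and single-array regions cannot, so this difference is partly built in.

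Scores inside the regions describe how the arrays read the same probes. The MAT score is relative to each array's own probes, and the authors' thresholds were 2.53 on High Coverage 1, 2.99 on High Coverage 2 and 2.52 on Stringent, so scores are not set against each other across arrays as levels. The highest probe score inside an unnested region had a median of 3.68 on High Coverage 1, 4.03 on High Coverage 2 and 0.790 on Stringent. As percentiles among all scored probes of the array, these medians were 97.1, 96.1 and 90.2. Because the rule left out every region with a Stringent call, a low Stringent score was built in. It still varied. The highest Stringent score was below 0 in 373 of the 1777 regions with a scored probe, or 21.0%, between 0 and 1 in 660, between 1 and 2 in 617, and between 2 and the threshold in 127. The uppermost was 2.51, just under the threshold.

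**Figure D2:**
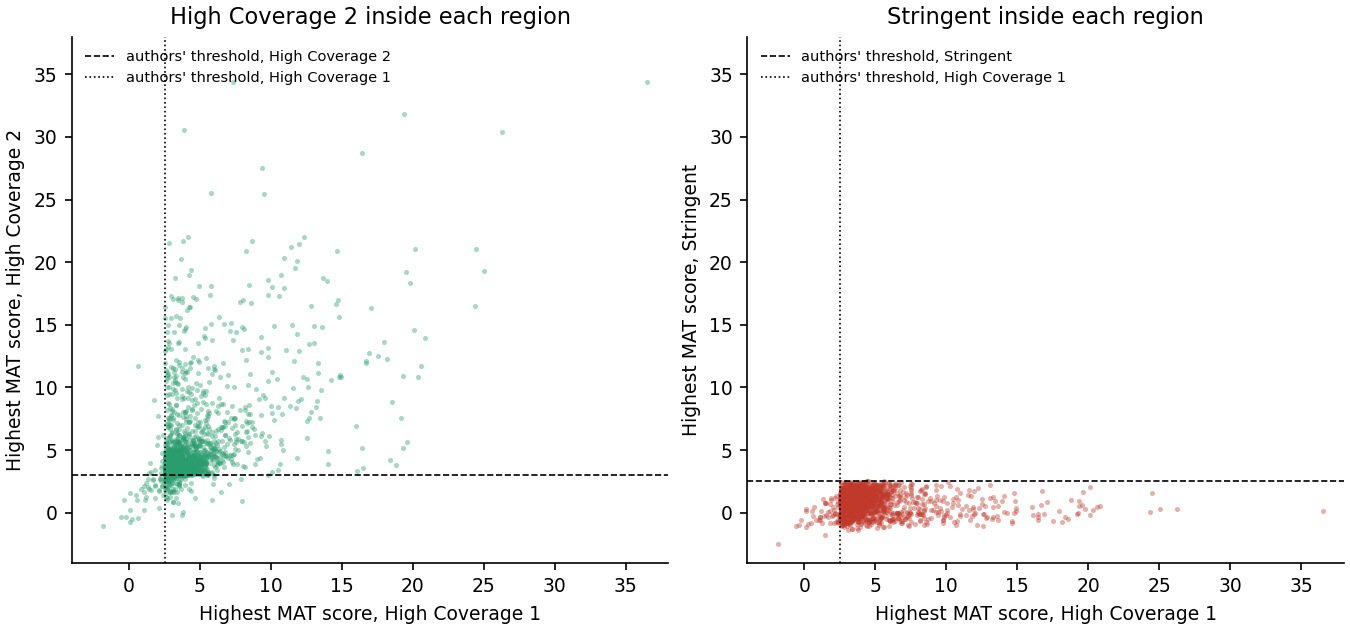
Highest MAT score inside each unnested region on High Coverage 2 (left, green) and on Stringent (right, red) against the highest on High Coverage 1, on the same linear axes. Dashed and dotted lines are the authors' thresholds. High Coverage 2 scores reach 34.4, and no Stringent score reaches 2.52, which the rule imposed.

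Across the 1777 regions the 2 High Coverage arrays had Pearson's r = 0.542 and Spearman's rho = 0.455, High Coverage 1 with Stringent had r = -0.0615 and rho = 0.0634, and High Coverage 2 with Stringent had r = -0.168 and rho = -0.0456. These describe positions that share probes and base composition, within a range that the thresholds narrowed. In 60 regions at 57 positions the highest score was at least 10 on both High Coverage arrays. In these strong regions the median Stringent score was 0.220, and 25 of the 60 were below 0. Of the 60, 44 lay downstream, 11 upstream and 5 across the position, and their median length was 321 bp.

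The unnested regions were shorter and weaker than the shared ones. Length bears on the chance that a Stringent region overlaps, and that overlap split the parts, so this is a description with no test. Their median length was 162 bp, with quartiles of 134 and 201 bp and a range from 29 to 657 bp, against 223 bp for shared and 138 bp for single-array regions. Their region scores, the authors' own values, had a median of 3.64, against 5.88 and 3.03. Unnested regions spanning a position were longer, with a median of 180 bp, and scored 4.16. This was not particular to them, and length also bears on the chance of spanning a position. Spanning regions had medians of 227 bp and 6.755 among the shared and 153 bp and 3.34 among the single-array regions. The overlap of unnested regions with High Coverage 2 was nearly complete in most cases. It covered a median of 96.5% of the unnested region, and at least 50% of it in 1670 regions, or 93.6%. It was under 10% in 28.

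As called, regions that spanned a position began just before it and ran mainly downstream. In the 95 such regions the median 5′ edge was at -53 bp, with quartiles of -62.5 and -33 bp, and the median 3′ edge was 133 bp after the position. The longer part was downstream of the position in 88 of 95. Called edges can lie outside the probes that reach the threshold, so they do not mark where signal starts. The High Coverage 1 region of Olfr741 was called from -53 bp, but its probes first passed 2.53 at 9 bp downstream, with 3.22. That of Olfr275 was called from -61 bp, and its probes first passed 2.53 at 1 bp downstream, with 4.92. Within 100 bp of a position there were 126 unnested regions at 114 positions, and 7 of these positions also had a Stringent region within 100 bp. Over all positions it was 669 of 1085, or 61.7%. A low count is built in here, since these regions occupy the position or its edge and may overlap no Stringent region.

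Olfr741 on chromosome 14 and Olfr275 on chromosome 4 ranked highest, by the lower of their High Coverage percentiles, among the regions within 100 bp of a position that had no Stringent region within 100 bp. The Olfr741 region, chr14:51092539-51092892 on build mm9, spanned the position 51092592 on the plus strand. Its highest score was 26.3 on High Coverage 1, 30.4 on High Coverage 2 and 0.330 on Stringent. Both High Coverage arrays were near the top of all their probes, and Stringent stood at the 87.4 percentile of its own. The Olfr275 region, chr4:52834220-52834710, scored 19.8 on High Coverage 1, 18.3 on High Coverage 2 and 0.330 on Stringent. High Coverage 1 ended 429 bp after the position, and High Coverage 2 ran on to 619 bp. The nearest Stringent region was 2428 bp away at Olfr741 and 2773 bp away at Olfr275.

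Olfr331 on chromosome 11 held the unnested region with the highest score on High Coverage 1, and on High Coverage 2 only a region of Olfr1257, with 34.38 against 34.37, scored higher. It was chr11:58322283-58322821, whose edge lay 64 bp upstream of the position 58322219 on the minus strand. The highest Stringent score inside it was 0.141, beside 36.5 on High Coverage 1. The Stringent region of the same promoter ran from 44 bp upstream to 345 bp downstream with a score of 13.4, where neither High Coverage array had a region. The High Coverage 1 region stopped 20 bp short of the Stringent region, and the High Coverage 2 region reached its edge at 44 bp upstream. The calls of the 2 groups thus adjoined without overlapping at 1 named position, but their probes above threshold did not adjoin. Toward the position, High Coverage 1 was last above its threshold at 126 bp upstream, with 5.13. High Coverage 2 was last above its own at 106 bp upstream, with 3.04. Stringent first passed its threshold at 18 bp downstream, with 3.05.

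**Figure D3:**
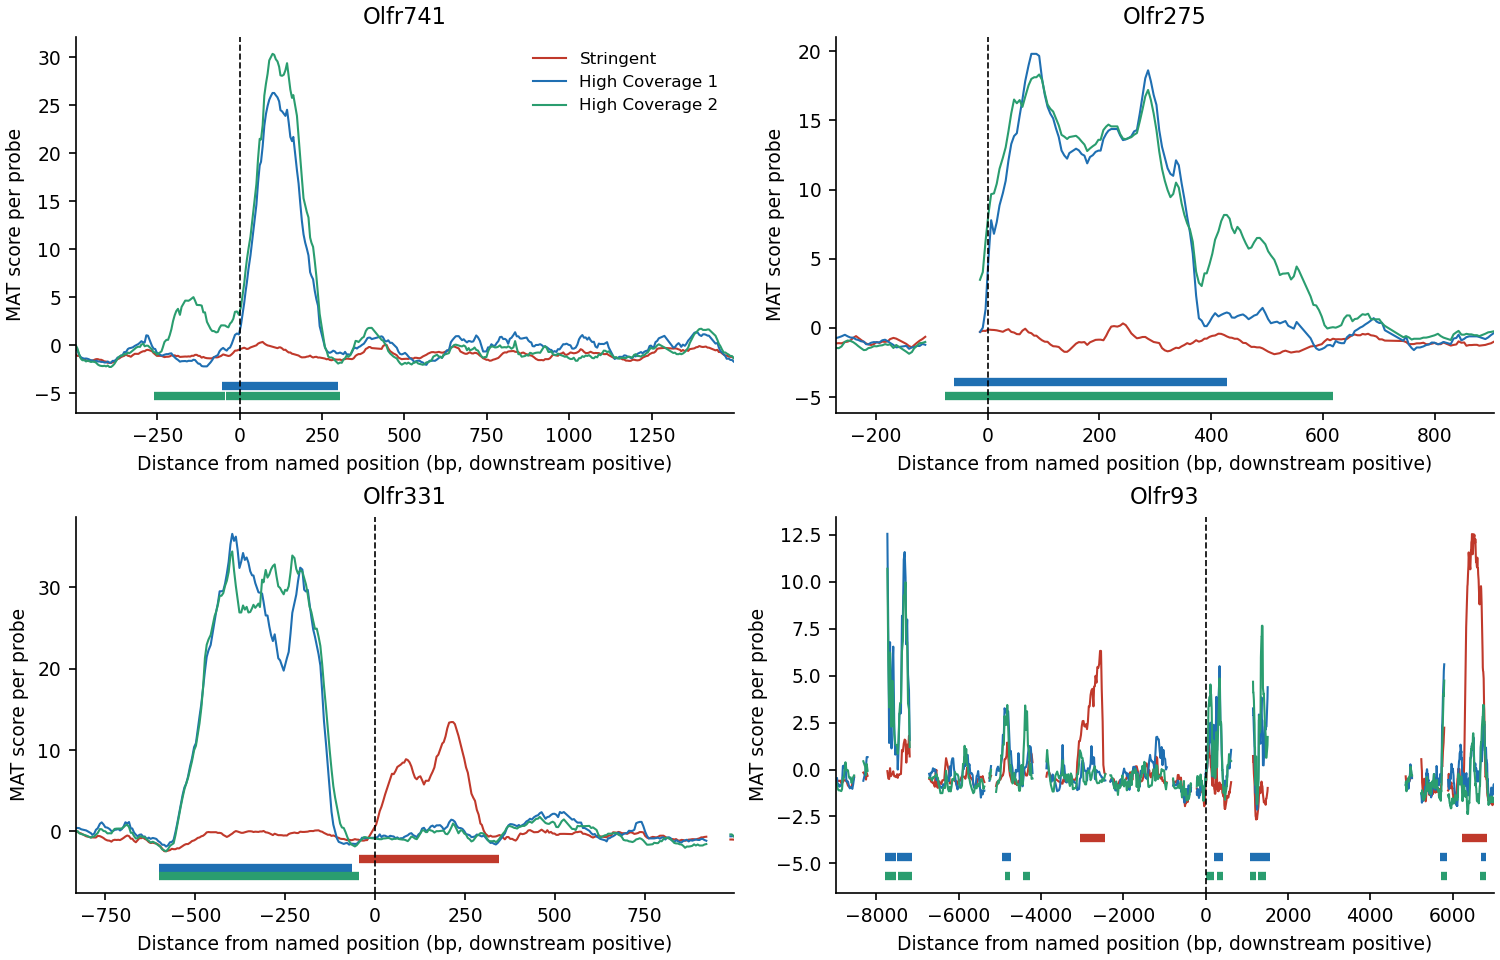
MAT score per probe on Stringent (red), High Coverage 1 (blue) and High Coverage 2 (green) against the distance from the named position of Olfr741, Olfr275, Olfr331 and Olfr93, in bp with downstream positive. Bars under the curves are the authors' called regions on each array, and gaps in the curves have no scored probe. At Olfr331 both High Coverage curves peak upstream and the Stringent curve peaks downstream.

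The other regions at a position that ranked highest in this way had no Stringent region within 100 bp. They spanned the positions of Olfr891 on chromosome 9, Olfr213 on chromosome 6, Olfr403 on chromosome 11, the pseudogene Olfr263-ps1 on chromosome 13, and Olfr137 and Olfr127 on chromosome 17. At Olfr116 on chromosome 17 the region lay 86 bp upstream. Olfr891 scored 11.6 on High Coverage 1, 12.1 on High Coverage 2 and 0.237 on Stringent. Olfr213 scored 16.7, 11.9 and 0.585 in the same order. At Olfr403 the Stringent score was 2.47, just under its threshold, beside 10.1 and 11.2 on the High Coverage arrays, in a region of 11 scored probes. Olfr263-ps1 differed more between the High Coverage arrays, with 8.50 and 18.2.

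Away from the positions, strong unnested regions lay on either side. Olfr111 on chromosome 17 had one 1073 bp downstream that scored 24.5 on High Coverage 1, 21.1 on High Coverage 2 and 1.57 on Stringent. Olfr582, a class I receptor on chromosome 7, had one 3952 bp downstream with 25.1, 19.3 and 0.261, and it ended 11 bp from a Stringent region. Olfr572, also of class I, had one 3513 bp downstream with 16.5, 28.7 and -0.105, and there the nearest Stringent region was 10001 bp away. Olfr1162 and Olfr1138 on chromosome 2 had theirs 1120 and 434 bp downstream. Upstream, Olfr222 on chromosome 11 had one 1312 bp away with 24.4, 16.5 and 0.0772, and Olfr99 on chromosome 17 had one 5749 bp away with 19.6, 19.2 and 0.646. The longest unnested region, 657 bp, lay 6261 bp downstream of Olfr1357 on chromosome 10, and High Coverage 2 covered 24.4% of it. The third longest, after that of Olfr331, had 523 bp and lay 6090 bp downstream of Olfr618, a class I receptor.

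Unnested regions were spread over many promoters, with few near each. For 768 of 1085 positions, or 70.8% (68.0 to 73.5), that position was the nearest one of at least 1 region. The shared regions also had 768 such positions and the single-array regions 793. Named at those positions were 720 receptor genes and 38 unannotated pseudogenes. There was 1 region at 302 positions, 2 at 208, 3 at 115 and 4 or more at 143. The 143 positions with 4 or more held 721 regions, or 40.4% of all. Some of these regions abut. Joined where they lay at most 30 bp apart, the 1784 regions made 1523 stretches, and positions with 4 or more fell to 86.

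**Figure D4:**
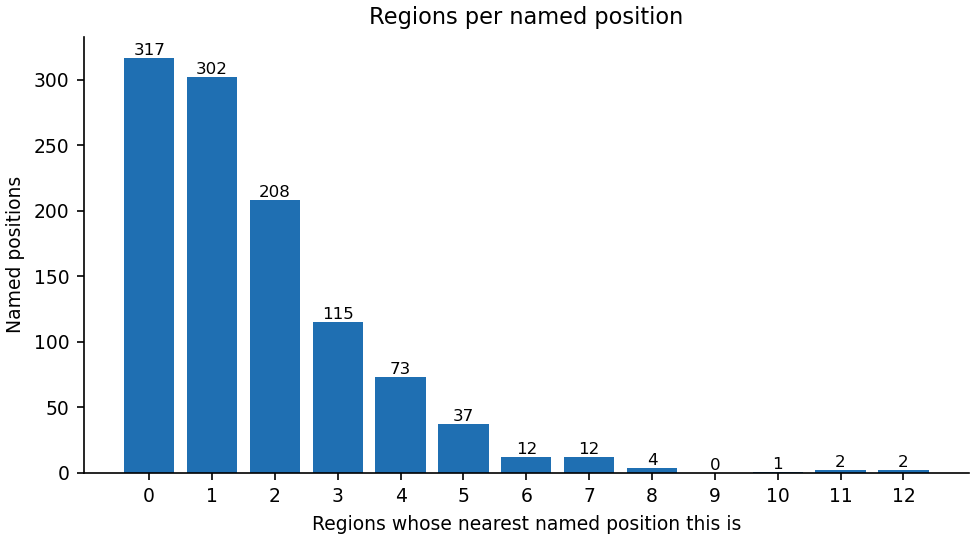
Number of named positions (vertical axis) with 0 to 12 unnested regions nearest to them (horizontal axis). The count falls from 317 positions with 0 and 302 with 1 to 2 positions with 12.

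The positions with the most unnested regions were Olfr133 and Olfr93 with 12 each, Olfr135 and Olfr127 with 11 each, all on chromosome 17, and Olfr1254 on chromosome 2 with 10. At Olfr133, 7 of the 12 lay upstream and 5 downstream, and a Stringent region lay at the position. Its strongest, chr17:38287358-38287851, scored 19.3 on High Coverage 1, 10.9 on High Coverage 2 and 0.964 on Stringent. At Olfr93 the 12 regions formed 5 stretches, with 5 regions upstream, 7 downstream and no Stringent region within 100 bp. The upstream region at 7144 bp scored 11.6 and 9.98 on the High Coverage arrays over 16 scored probes, and the 3 regions beyond it held 7 or fewer each. Over all unnested regions, 34, or 1.91%, held under 5 scored probes.

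Chromosome 17, where the receptor cluster lies beside the major histocompatibility complex, had the densest unnested regions. It held 184 of them, at 40 of its 42 positions, or 4.38 per position and 2.52 per 1000 scored probes, against 1.31 per 1000 over all chromosomes. Shared regions were at 0.836 per 1000 there, against 1.14 over all. Single-array regions were at 1.47 per 1000 there, against 1.21 over all, so a raised density was not particular to the unnested regions. Of the chromosome's 245 near regions called on both High Coverage arrays, 75.1% (69.2 to 80.4) had no Stringent region. The downstream over upstream ratio of its unnested regions was 0.723 (0.535 to 0.979), with 82 of the 184 upstream. Their median region score was 4.62, against 3.58 on the other chromosomes, and their median highest Stringent score was 0.352 against 0.845. Chromosome 17 was thus high in number and score, with more regions per probe upstream than downstream. It is 1 cluster, from position 37295280 to 38466768, so its regions share their locus.

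**Figure D5:**
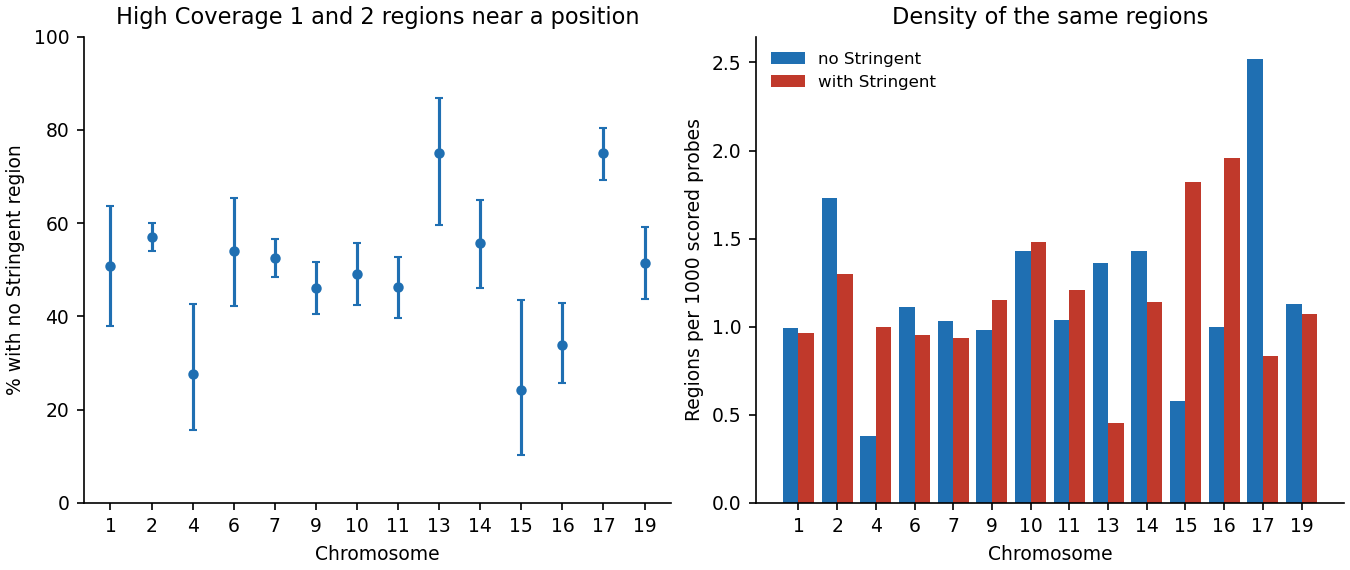
Left, the percentage of near regions called on both High Coverage arrays that had no Stringent region, by chromosome, with exact 95% intervals. Right, unnested (blue) and shared (red) regions per 1000 scored probes within 10 kb of a position. Chromosomes with under 20 such regions are left out. Chromosome 17 stands at 75.1% and 2.52 per 1000.

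Among the 22 clusters of 10 or more positions, separated by 1000000 bp, the share with no Stringent region ran from 13.0% to 82.5%, with a median of 49.2%. The uppermost was the cluster on chromosome 13 from 21167971 to 21789780, where 33 of 40 regions were unnested, and the lowest was on chromosome 7 from 147350137 to 147883134, with 10 of 77. Chromosome 16 had 33.9% (25.6 to 42.9) and chromosome 4 had 27.7%. In 20 of the 22 clusters most unnested regions lay downstream, but so did 72.5% of the scored probes near a position over all chromosomes. This count was not set against the probes of each cluster. It includes the chromosome 17 cluster, with 52.7% downstream and a ratio per probe of 0.723. For class I receptors, an evolutionarily older class in 1 cluster on chromosome 7, 182 of 257 regions on both High Coverage arrays were unnested, or 70.8% (64.8 to 76.3). For class II it was 51.6% (49.8 to 53.4) of 2941, and for unannotated pseudogenes 58.7% of 143. Numbers per position were alike, at 1.72, 1.64 and 1.65, and the share downstream was 70.3%, 71.8% and 66.7%. These shares rest on the same Stringent calls as the rule.

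Receptors known from earlier work held unnested regions about as often as the rest. Of 26 listed, 20 had a named position and 15 of these, or 75.0%, had at least 1 region, against 71.6% of all 1058 names. The 15 receptors held 33 regions. Olfr2, the I7 receptor for octanal, had a region 4901 bp downstream that scored 14.8 on High Coverage 1, 16.96 on High Coverage 2 and 1.60 on Stringent. Olfr17, the P2 receptor beside the P element enhancer, had one 4649 bp downstream with 13.6, 14.8 and 0.513, 89 bp from a Stringent region. Both were strong on each High Coverage array, and a Stringent score below the threshold was imposed by the rule.

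Olfr713, a neighbour of Olfr17, had 4 regions, of which 3 abutting ones began 5507, 5651 and 5786 bp downstream. Olfr73, a receptor for eugenol, had 1 region 897 bp downstream with 4.33, 11.9 and 0.122. Olfr160, the M72 receptor, had 1 region 4701 bp downstream with 3.52, 6.71 and 1.01. Olfr1440, a muscone receptor, had 2 weak ones, 3571 and 4177 bp downstream. Of the neighbours of the H element on chromosome 14, Olfr1508 had 1 and Olfr1509 had 2, all downstream.

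Among class I receptors for short-chain acids, Olfr78 had 1 region at each of its 2 positions, 4865 and 5115 bp downstream, with scores of 3.49 and 4.93 on High Coverage 1. Olfr558 had 1 on each side. Olfr690 had 3, and the one that began 3 bp downstream of its position scored 3.48 on High Coverage 1, 3.59 on High Coverage 2 and 2.11 on Stringent. Outside class I, Olfr23 on chromosome 11 had 5 regions, the strongest 4163 bp downstream with 8.59, 16.7 and 2.09. The other receptors with a region were Olfr154 and Olfr74 with 3 each and Olfr43 with 1. Olfr50, Olfr6, Olfr714, Olfr1507 and Olfr155 had a position and 0 unnested regions.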

How the data were processed

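Each array was scored alone by the authors. The deposited probe scores are MAT scores, a window statistic with bandwidth 50, gaps up to 30 and 5 or more probes, on a natural log scale per the file headers. Region scores are also the authors' deposited MAT values, from calls at a 0 percent false discovery rate per array. Positions and coordinates are printed as deposited, in bp of mm9 as named by the submitters' processing notes. Probes at exactly 0 on all 3 arrays were treated as unscored, which left 2188086 of 2313448.

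Members, lists and comparison parts were chosen with earlier results of these data known. Genes were named by rule: 10 regions with the highest lower percentile over the High Coverage arrays, 10 such within 100 bp of a position, 5 positions with the most regions, 3 longest regions, those at the limits, and a list of well-studied receptors. Chromosome 17, Olfr1257 and single clusters were named after their values were seen. Densities divide counts of region centres by scored probes assigned to the same position. Class I comprised the chromosome 7 genes from Olfr543 up to Olfr692, plus Olfr33, Olfr78 and the run Olfr64 to Olfr69. Of 720 gene names with a region, 699 matched RefSeq symbols.

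Sequences and motifs were planned in RefSeq promoter windows (GRCm38.p6) but are not reported. Spacing between neighbours agreed within 100 bp with that of the named positions in 30 of 771 pairs, so the windows do not lie at these positions. Probe sequences were not used here, so signal of near-identical receptor copies cannot be told apart. The alternatives tried were other overlaps, limits, thresholds, lists and chromosomes, and each High Coverage array left out. All 217 planted test regions came out with the right side, distance and position. Intervals used scipy 1.17.1, tables pandas 2.3.3 and numpy 2.4.6, and plots matplotlib 3.10.9, under Python 3.11.15.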

Additional observations from a re-analysis of the deposited data

How the results depend on the processing

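No paired analysis was possible because Stringent has 1 array, so the groups share fewer than 2 replicate numbers, and no result comes from a test. Of 82 values under alternatives, 58 stayed within 1.5 times (counts) or within the 95% interval of the main value, and 23 moved beyond it. The count of unnested regions was 2703 without High Coverage 1 and 3442 without High Coverage 2, since overlap was then not required. With 1 High Coverage array left out, the share of positions with a region was 84.7% to 90.9%, the share spanning the position 4.10% to 4.77%, the median length 146 to 146.5 bp and the ratio of downstream to upstream density 1.08 (0.992 to 1.18) to 1.12. When overlap had to cover 50% of both regions, 68.9% lay downstream, 65.8% of positions had a region and the median length was 168 bp. With Stringent regions within 100 bp also excluding, 65.9% of positions had a region. With a limit of 5000 bp, 67.9% lay downstream, 7.20% spanned the position, 61.2% of positions had a region and the median downstream distance was 2440 bp. At the High Coverage 2 threshold, 63.0% of positions had a region and the median length was 179 bp. Drawn from High Coverage 2, the median length was 153 bp. Settings chosen after seeing the data were leaving out chromosome 17, with 73.6% downstream and a ratio of 1.37, and counting probes outside Stringent regions, with a ratio of 1.45. Within 500 bp instead of 100 bp, 61.4% of regions had a Stringent region at their position. The median Stringent score inside the regions was -0.0933 as the mean over probes, below 0, against 0.790 for the highest probe. The highest scored probe inside was under the authors' threshold of High Coverage 1 in 54 regions and of High Coverage 2 in 134, and the cause was not tested.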
